A study of Mus musculus with 2 samples.

Results

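The genes described here are 10 genes of the floor plate and ventral neural tube, Foxa1, Foxa2, Lmx1a, Ntn1, Spon1, Corin, Nkx2-2, Nkx2-9, Nkx6-1 and Nkx6-2. They were found on the arrays by gene name, which gave 12 of 41174 gene probes, or 10 of 19505 genes with a symbol. RNA came from R1, a mouse embryonic stem (ES) cell line. Day 0 cells grew on mitotically inactive fibroblast feeders in medium with 15% serum and 1000 U/ml leukaemia inhibitory factor (LIF). By day 6, direct neural differentiation had turned them into embryoid bodies, which are cell aggregates. The labels call the day 6 cells neural precursors, and no genotype change, transgene or added patterning factor is named for either group. The day 6 medium and the removal of feeder cells are not stated in the sources used here. Each group held 1 one-colour Agilent array of total RNA, so there is no replicate check, no test between the days and no p-value. The cells came from 1 line.

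The floor plate is the strip of cells at the ventral midline of the neural tube. It arises next to the notochord and, like the notochord, secretes Sonic hedgehog, which patterns the ventral progenitors by dose. Foxa2 is a forkhead factor that sets floor plate identity, and floor plate cells also release guidance cues such as netrin-1 and F-spondin. Nkx2-2 and Nkx2-9 mark the progenitors beside the floor plate, while Nkx6-1 and Nkx6-2 cover a wider ventral territory.

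The genes were chosen on the day 6 minus day 0 difference in intensity on these same arrays, so their direction describes how they were chosen and supports nothing. All 10 passed 2-fold upward by day 6, and 0 passed it downward. Over all 14967 genes well above background on at least 1 array, 17.8% passed 2-fold upward on day 6 and 20.1% passed it downward. At 4-fold, 9 of the 10 were higher, all but Lmx1a, against 7.35% of all genes. The median log2 difference, with dim genes at their bound, was 3.94 for the 10 genes and -0.09 for all genes. Medians of other gene lists are given in the same way. In bulk RNA, more cells of a type and more RNA per cell cannot be told apart.

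Intensity here is the scanner software's processed spot signal, after background subtraction and detrending. Differences are log2 values after subtracting each array's 75th percentile, which was 3758 units on day 0 and 4388 on day 6. Probes that the software called well above background began at 102 units on day 0 and at 85.2 on day 6. Where a probe was not well above background on day 0, the difference is a lower bound, written "at least". An error given as ± is the software's own error of 1 intensity or 1 log2 difference, and does not include variation between cultures. Probes differ in how well they bind, so intensities of different probes do not rank genes by level, and an intensity summed over a gene list, which is unscaled, weighs its bright probes most.

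The labels of both samples could be checked against marker genes. All 8 pluripotency markers examined (Pou5f1, Nanog, Zfp42, Esrrb, Tdgf1, Dppa5a, Klf2 and Tbx3) were at least 2-fold lower on day 6. Of 8 neural markers, 7 were at least 2-fold higher, led by Fabp7, Hes5 and Dcx, and the remaining one, Nes, named after its value was seen, was within 2-fold at 0.34 log2 units. Ncam1, one of the 7, had probes of opposite direction, from -1.82 to 2.23. The 2 Dcx probes gave 1.65 and 6.55 log2 units, the larger one a bound. Probes well above background made up 61.5% on day 0 and 65.5% on day 6.

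The probes themselves are 60-base oligonucleotides, and the deposited scanner files give their sequences. The first 30 bases of 6 of them are printed, because they stand for the gene read at the most spots (Foxa2), the smallest difference measured on both arrays (Nkx2-9), and the genes that were read by a pair of probes (Ntn1 and Spon1). All letters are lower case, since no motif is marked.
Foxa2: ccattctggacatggtgaaatccaggtctc
Nkx2-9: ttcttgaagcattatttgtatattttaaaa
Ntn1, probe for BC029161: tattaacagagttgtgatatgtaggtcttt
Ntn1, probe for NM_008744: actgtgattcctattgcaaggcctccaaag
Spon1, probe for NM_145584: ggctactttatttgtgagccatgatttccg
Spon1, probe for AK084717: ccatgccaatgtgttttatcagagggcaat
The whole Foxa2 probe lies at chr2:147783819-147783878 on the minus strand of build mm7, and the Nkx2-9 probe at chr12:54541758-54541816, minus strand. The Ntn1 probes lie at chr11:68291883-68291942 (BC029161) and chr11:68308125-68308184 (NM_008744), 16.2 kb apart on the minus strand. The Spon1 probes lie at chr7:109956664-109956723 (NM_145584) and chr7:109958294-109958353 (AK084717), 1.63 kb apart on the plus strand. The Nkx2-9 probe is the poorest in G and C of the 12, at 23.3%, while the other 11 hold between 35% and 45%. Exon and UTR positions of the probes were not used here, because no annotation of build mm7 was used. Among the 66 pairs of probes, the longest run of bases in common, on either strand, was 11 (Nkx2-9 and Lmx1a), so no member probe repeats another.

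**Figure D1:**
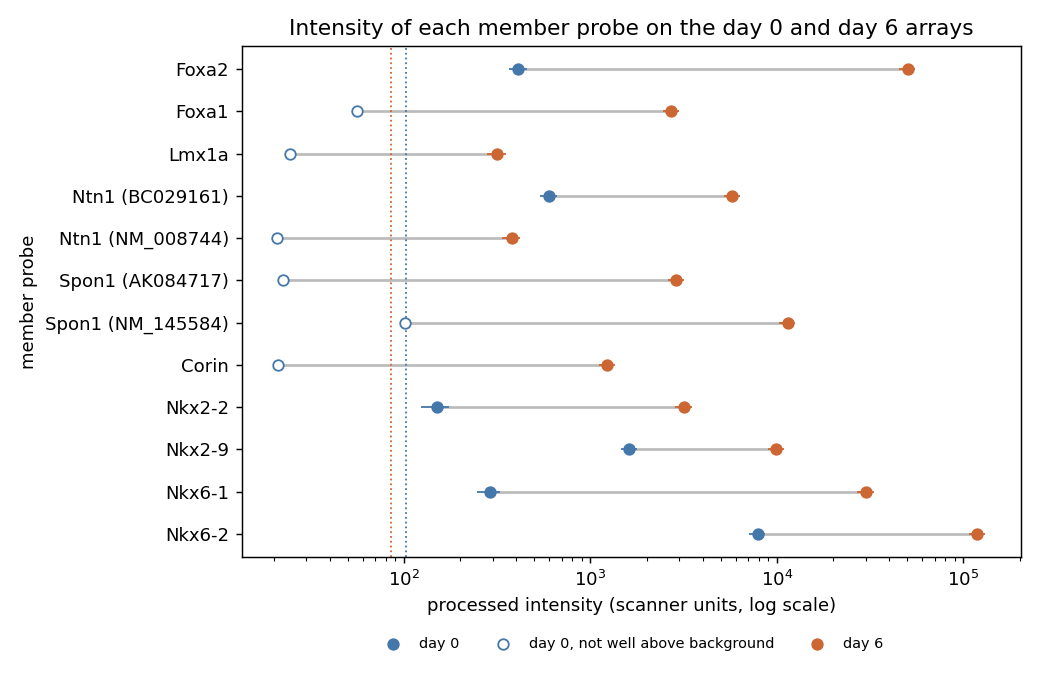
Processed intensity (scanner units, log axis) of the 12 member probes on the day 0 array (blue) and the day 6 array (orange), with bars for the software error. Open circles are not well above background, dotted lines mark where the signals well above background began on each array, and all 12 day 6 points lie to the right of their day 0 points.

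Foxa2 (probe for NM_010446) was read more often than the other members, because its probe was printed at 10 spots of each array. Its mean intensity was 411 on day 0 (spot SD 23.5) and 50118 on day 6 (spot SD 1226). The 9 spots used on day 0 ran from 384 to 447 with a median of 412, and the 10 spots of day 6 from 48243 to 52009 with a median of 49762. The tenth day 0 spot, at 724, was marked as an outlier by the software and left out. Every day 6 spot was brighter than every day 0 spot, that outlier included. The log2 difference was 6.71 ± 0.22, a 105-fold higher value on day 6, and pairing the extreme spots used gave 92.5-fold to 116-fold. Spots of 1 array share 1 RNA sample, so their spread is technical and holds no variation between cultures.

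**Figure D2:**
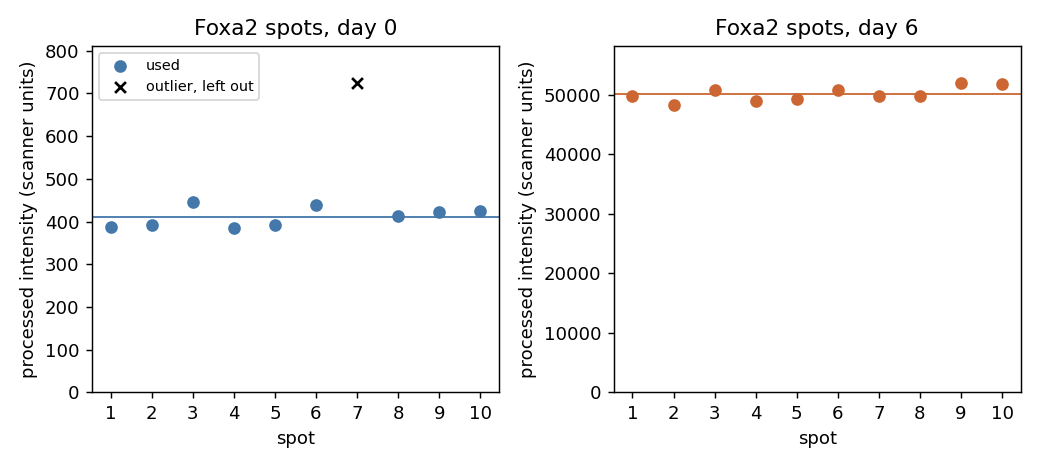
Processed intensity (scanner units, linear axes from 0, with different ranges) of the 10 Foxa2 spots on the day 0 and day 6 arrays. The line is the mean of the spots used, the cross at 724 is the outlier left out, and the spread was 5.72% of the mean on day 0 and 2.45% on day 6.

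Foxa1, a close paralogue of Foxa2 that acts with it in the ventral midline and in endoderm, was read at 55.9 on day 0, not well above background. On day 6 it stood at 2708 ± 271, so it was at least 22.7-fold higher. The Foxa1 probe (NM_008259) lies at chr12:55476083-55476142. The third paralogue, Foxa3, a gene of endoderm and liver, went the other way. Foxa3 had 331 units on day 0. On day 6 its reading of 76.0 was not well above background, so it was at least 4.53-fold lower. Foxa3 was not among the 10 genes.

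Lmx1a, a LIM homeobox gene of the midbrain floor plate and of the dorsal roof plate, had the lowest reported value of the 10. Its day 0 reading of 24.5 was not well above background, and its day 6 reading was 316 ± 37.4 (probe for NM_033652, chr1:167823818-167823877). It was at least 2.65-fold higher, a log2 bound of 1.41. The bound was 0.75 log2 units with no background subtraction, and it was also under 2-fold with normexp background correction. Its paralogue Lmx1b, named after its values were seen, read 45.3 on day 0, not well above background, and 114 on day 6, too close to background to give a fold.

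The secreted and surface proteins of the floor plate were read by 5 probes. Ntn1 encodes netrin-1, a secreted cue that attracts commissural axons to the midline. Its BC029161 probe gave 601 ± 63.8 on day 0 and 5743 ± 575 on day 6. The log2 difference was 3.03 ± 0.21 (8.18-fold). Its NM_008744 probe read 20.9 on day 0, not well above background, and 379 ± 41.6 later, at least 3.17-fold higher. Both Ntn1 probes were higher on day 6. The bound of the dimmer one, 1.66 log2 units, lies below the measured difference of the brighter one, and a bound sets no upper limit.

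Spon1 encodes F-spondin, an extracellular matrix protein of the floor plate that acts on commissural axons. Its NM_145584 probe was read at 102 on day 0, just under the lowest signal well above background, and at 11411 ± 1141 on day 6. It was at least 95.6-fold higher. The AK084717 probe was read at 22.5 and 2885 ± 289, at least 24.2-fold higher. The bounds of the pair differ because the day 6 signals differ, while both day 0 readings were at or under the same floor.

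Corin encodes a membrane serine protease that activates atrial natriuretic peptide in the heart and is used as a surface marker of midbrain floor plate cells. Its probe (NM_016869, chr5:71671159-71671218) read 21.1, not well above background, on day 0 and 1231 ± 124 on day 6. Corin was at least 10.3-fold higher. The natriuretic peptide genes Nppa and Nppb were named after their values were seen. Nppa read 68.1 on day 0, not well above background, and 113 on day 6, too close to background to give a fold, and Nppb was 5.31-fold lower.

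Nkx2-2 specifies the progenitors that flank the floor plate and give V3 interneurons. It had 150 ± 25.6 units on day 0 and 3171 ± 318 on day 6, which is 4.18 ± 0.29 log2 units or 18.1-fold. The day 0 value lay close to the lowest signal well above background. Nkx2-9, expressed in the same ventral cells, had 1612 ± 163 and 9915 ± 992 units, a log2 difference of 2.40 ± 0.20 (5.27-fold). Nkx2-9 had the smallest difference of the 6 genes measured on both arrays.

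Nkx6-1 and Nkx6-2 are repressor homeobox genes of the ventral neural tube that also help set motor neuron fate. Nkx6-1 had 288 ± 40.4 units on day 0 and 30008 ± 3001 on day 6, which is 6.48 ± 0.25 log2 units or 89.2-fold. Nkx6-2 had 7863 ± 787 and 118729 ± 11873, a log2 difference of 3.69 ± 0.20 (12.9-fold). The Nkx6-1 probe (NM_144955) lies at chr5:100876194-100876253 and the Nkx6-2 probe (NM_183248) at chr7:135995018-135995077. Nkx6-2 was clearly above background on day 0, unlike 4 of the 10 genes (Foxa1, Lmx1a, Spon1 and Corin), for which only day 6 was well above background. That pattern held for 7.98% of all genes. Whether the day 0 signals of Nkx6-2, Nkx2-9, Ntn1, Foxa2, Nkx6-1 and Nkx2-2 came from ES cells or from feeder cells was not tested. The summed intensity of 15 feeder fibroblast genes was 135841 on day 0 and 34600 on day 6, with 14 of 15 well above background on each array. Of these 15 genes, 8 were at least 2-fold lower on day 6 and 2 higher, and S100a4 was 159-fold, Lox at least 118-fold and Thy1 29.7-fold lower. That Thy1 value is of its brighter probe, and its 2 probes gave -4.89 and -1.89 log2 units.

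The order of the 6 differences measured on both arrays was Foxa2, Nkx6-1, Nkx2-2, Nkx6-2, Ntn1 and Nkx2-9, over a range of 4.31 log2 units. Foxa2 and Nkx6-1 differed by 0.23, less than the sum of their software errors (0.47). The gap of Nkx2-2 to Nkx6-2 (0.489) was barely under the sum of both errors (0.49). With normexp these 2 changed places, at 3.48 for Nkx2-2 and 3.70 for Nkx6-2, as they did with no background subtraction, at 3.41 and 3.69. The gaps of Nkx6-1 to Nkx2-2 (2.30), Nkx6-2 to Ntn1 (0.66) and Ntn1 to Nkx2-9 (0.64) were larger than theirs. Of 14967 genes, 15 had a larger reported log2 difference than Foxa2, with each bound ranked at its own value. A lower bound sets no upper limit, so genes ranked below Foxa2 by a bound may lie above it. Of the genes well above background on both arrays, 5 had a larger difference than Foxa2. Among the 12968 genes well above background on both arrays, the 5 nearest to Foxa2 in log2 difference were Nkx6-1, D430019H16Rik (6.45), Cyp26b1 (6.23), Ildr2 (7.20) and Lrrn1 (6.14). With 1 array per day this likeness is a single number for each gene.

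**Figure D3:**
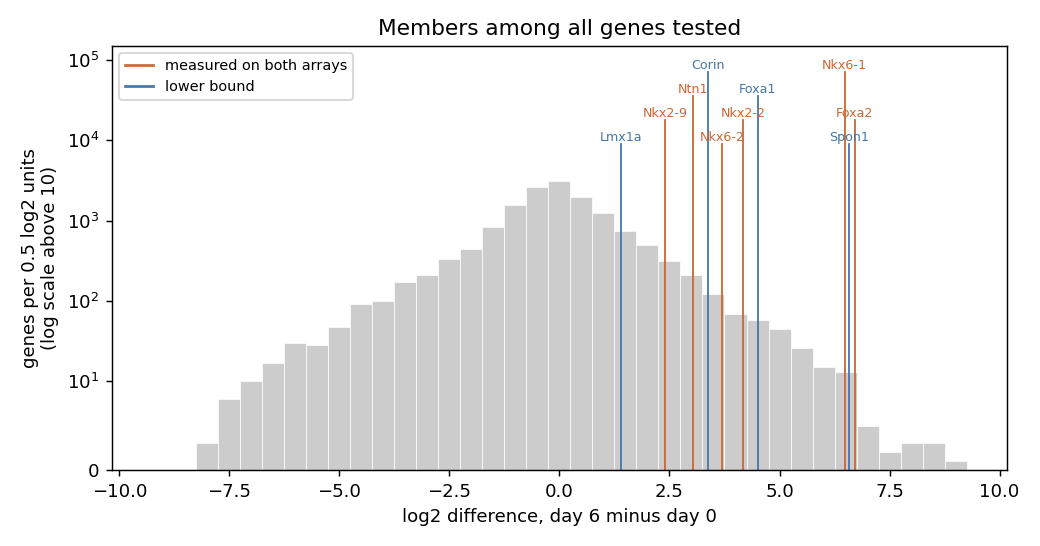
Log2 difference, day 6 minus day 0, of all 14967 genes (grey histogram, log count axis above 10 genes) with the 10 members as lines. Orange lines are measured on both arrays and blue lines are lower bounds, and the members span 1.41 (Lmx1a) to 6.71 (Foxa2).

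The arrays differed in overall brightness, and the members were followed through other settings. With no scaling between the arrays, the share of higher among 2-fold differences over all genes was 57.8%, against 47.0% in the setting reported, and the median of all genes was 0.13 in place of -0.09. All 12 member probes kept their direction under each of the 8 alternative settings. For the 6 probes with a lower bound this was fixed in advance, since a bound was never set below 0. The lowest value came from no background subtraction for 11 of the 12 probes, which gave 5.50 in place of 6.58 for Spon1 (NM_145584) and 3.54 in place of 4.50 for Foxa1, both dim on day 0.

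**Figure D4:**
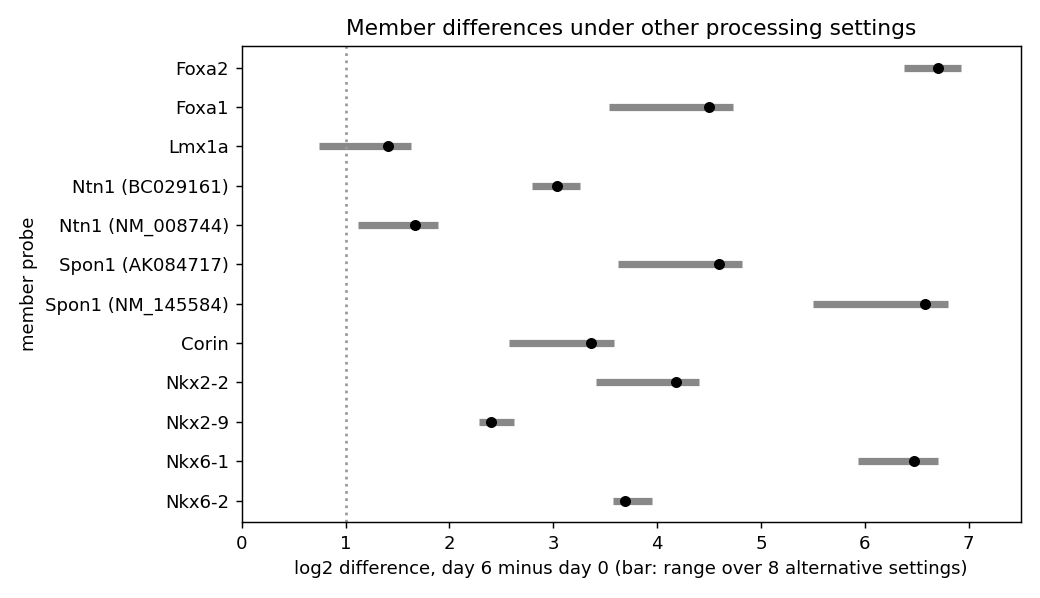
Log2 difference, day 6 minus day 0, of each of the 12 member probes as reported (black point) and its range over 8 alternative settings (grey bar), with a dotted line at 2-fold. The Lmx1a bar, from 0.75 to 1.63, is the one bar that crosses the line.

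Other genes of the floor plate and of hedgehog signalling were read on the same arrays. Shh, the ligand gene of the floor plate, read 23.6 units, not well above background, on day 0. With 11963 on day 6 it was at least 100-fold higher. Of 11 further floor plate genes including Shh, 7 were at least 2-fold higher (4 with array median scaling) and 0 lower, with a median of 1.05. Among the floor plate genes the midline repellent genes Slit2 and Slit1 were 16.7-fold and 3.98-fold higher, although the 4 Slit2 probes ranged from 1.25 to 4.06 log2 units. Of 15 measured hedgehog pathway genes, 6 were at least 2-fold higher and 2 lower, with a median of 0.64. The co-receptor genes Gas1 and Boc were 11.1-fold and 9.23-fold higher. Among genes known as hedgehog targets, named after their values were seen, Ptch1 was 4.15-fold and Hhip 3.46-fold higher, and Gli1 had a log2 difference of -0.74 ± 0.26.

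**Figure D5:**
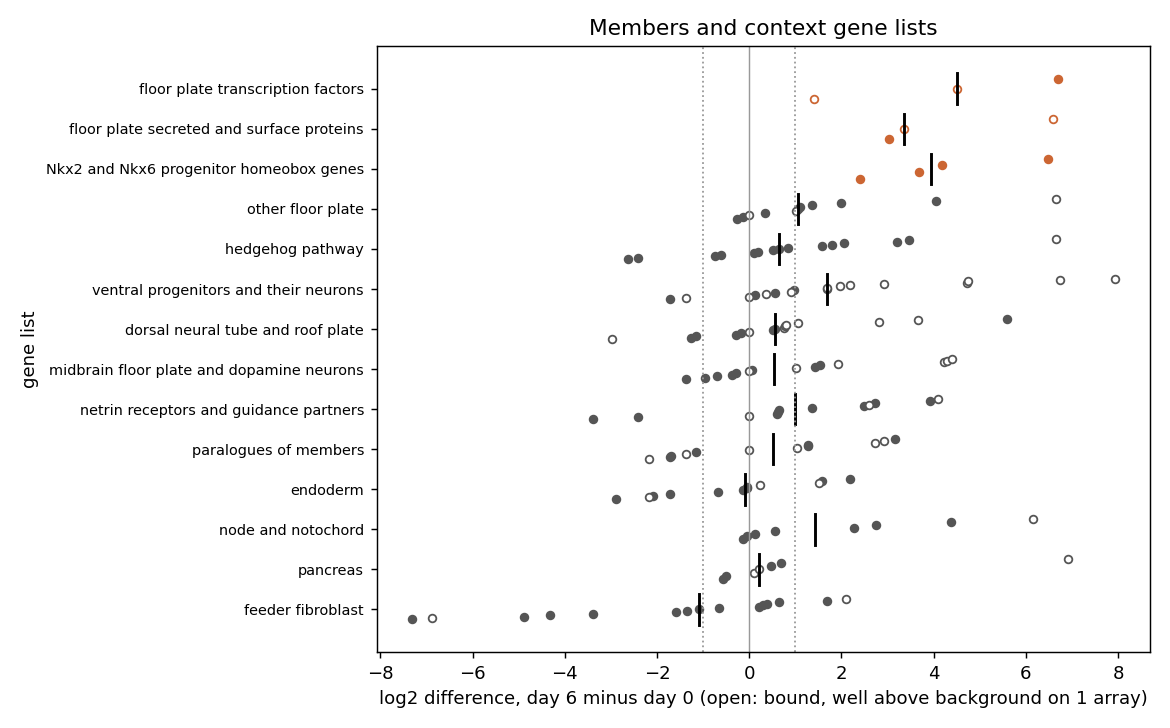
Log2 difference, day 6 minus day 0, of each measured gene of the 3 member groups (orange) and of 11 other gene lists (grey). Open circles are bounds, the black bar is the list median with bounds, and dotted lines mark 2-fold.

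Genes of neighbouring positions and of other tissues that use the same factors were mixed. Of 17 measured genes of other ventral progenitors and their neurons, 9 were at least 2-fold higher and 2 lower, with a median of 1.69. With only genes well above background on both arrays, 0 were 2-fold higher and the median was 0.34. Dbx1 was at least 246-fold and Isl1 at least 106-fold higher. Of 15 measured dorsal and roof plate genes, 4 were higher and 3 lower, with a median of 0.56, against 1 higher and a median of -0.17 under that requirement. Pax3 was at least 12.6-fold higher, and Wnt3a lower by a bound of 7.87-fold.

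Foxa1 and Foxa2 are also endoderm genes, Foxa2 and Shh mark the notochord, and Nkx2-2 and Nkx6-1 are pancreas genes. Of 18 endoderm genes 12 were measured, 3 of them passing 2-fold upward and 4 downward. Their median was -0.09, which turned to 0.14 with no scaling between the arrays. Their summed intensity was 10453 on day 0, of which Hhex alone gave 4641, and 8739 on day 6, of which Hhex gave 1650. On neither array were Hnf4a, Ttr, Afp, Alb, Apoa1 and Apoa2 well above background. Gsc was 4.53-fold higher. Of 8 measured node and notochord genes, 4 were higher and 0 lower, with a median of 1.42. With both arrays required, 3 were higher and the median was 0.56. The summed intensity of the 8 genes was 9733 on day 0 and 45195 on day 6. Foxd4 was at least 70.9-fold higher, Sox9 20.7-fold and Col2a1 6.77-fold higher, while T (brachyury), a defining notochord gene named after its values were seen, had 4913 and 5525 units, a difference of -0.05 that turned to 0.17 with no scaling. The part of notochord-like cells in the Foxa2 and Shh signals was not tested. Of 12 pancreas genes 7 were measured, 1 was higher (Sst, at least 120-fold) and 0 were lower. Their summed intensity was 2228 on day 0 and 16937 on day 6, of which Sst alone gave 14324 on day 6. On neither array were Pdx1, Ins1, Gcg, Pax4 and Mafa well above background.

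Several of the 10 genes lie near each other in the genome. The Foxa2 and Nkx2-2 probes are 0.860 Mb apart on chromosome 2, and the Foxa1 and Nkx2-9 probes 0.934 Mb apart on chromosome 12, in the mm7 coordinates of the files. In the RefSeq gene order, Pax1 lies between Nkx2-2 and Foxa2, and Nkx2-4 is the next gene on the other side of Nkx2-2. Nkx2-4 had 451 and 160 units and was 3.30-fold lower, and its second probe gave -0.49 log2 units. Pax1 was 2.75-fold lower by its brighter probe, while a second probe, well above background on day 6 only, gave a bound of 2.06 log2 units, so its direction is not settled. On chromosome 12, Nkx2-1 and Pax9 flank Nkx2-9. Nkx2-1 was at least 7.57-fold higher, and the bound for Pax9 was 3.91-fold in the same direction. Mipol1, next to Foxa1, was 3.48-fold higher by its brightest probe, with 5 probes between 0.57 and 1.80 log2 units. Among 53 protein-coding neighbours of the 10 genes (3 on each side), 43 were measured, with a median of -0.06. Of the 43, 8 were at least 2-fold higher and 8 lower, with Pax1 counted as lower by its brighter probe. For the other 27 the difference or its bound was under 2-fold. Ttc6 and Mfsd6l, among the 27, have only a bound, which does not place them within 2-fold.

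Promoter sequences of 250 bases before to 50 after the start were held by the RefSeq table (GRCm38.p6) for 8 of the 10 genes, in 10 windows, with no entry used for Ntn1 and Spon1. They were searched on both strands for short motifs of the factors named here. The GLI motif GACCACCCA was in 0 of 10 windows and in 0.253% of 32851 promoters. The FOXA motifs TGTTTAC or TGTTTGC were in 1 of 10 windows (Foxa1) and 8.48% of all promoters, the NKX2 motif TNAAGTG in 2 of 10 (Lmx1a and Nkx2-2) and 11.5%, and the homeodomain motif TAATTA in 0 of 10 and 5.29%. The 3 matches are shown with the motif in capitals, on the strand of the gene.
Foxa1, FOXA motif on the opposite strand: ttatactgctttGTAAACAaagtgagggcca
Lmx1a, NKX2 motif: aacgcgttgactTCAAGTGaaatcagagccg
Nkx2-2, NKX2 motif on the opposite strand: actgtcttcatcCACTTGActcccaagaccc
The windows are chr12:57546062-57546361 (Foxa1, minus strand), chr1:167689308-167689607 (Lmx1a, plus strand) and chr2:147186353-147186652 (Nkx2-2, minus strand). The matches begin 141, 12 and 197 bases before the start, and none of the 3 overlaps another of these motifs. A match of letters is a description and shows no binding.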

How the data were processed

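Total RNA of 2 samples was read on 1 one-colour Agilent array each. Per the file headers, the deposited intensities came from design 014868 and Feature Extraction 9.5.3.1, with background subtraction and detrending by the software, and positions are in build mm7. Per the labels, RNA was taken with Trizol and labelled with Cy3. The deposited value table is on a log2 scale with equal distributions, by steps not given in the sources used here, and served as an alternative.

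Control and outlier spots were left out, log2 intensities of a probe's spots averaged, and the array's 75th percentile subtracted (Python 3.11.15, pandas 2.3.3). A probe was used where well above background on at least 1 array. Probes were named through a RefSeq table (GRCm38.p6), and a gene took its brightest probe. normexp used limma 3.58.1. Saturated member spots numbered 0. The method was tested on simulated data. The changed probes there were bright enough to stay above background on both arrays, so lower bounds of changed probes were not tested.

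The members and gene lists were chosen with earlier results of these data known. Named genes were every member probe, Shh, the 3 largest 2-fold differences of each list, the 5 genes nearest to Foxa2, and 3 protein-coding neighbours on each side. Some genes that this rule names are not reported here. Hhex, Ncam1 and Nkx2-6 were named after their values were seen.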

Additional observations from a re-analysis of the deposited data

How the results depend on the processing

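No paired analysis was possible because each group had 1 array, and no replicate could be left out. With only genes well above background on both arrays, 6 of the 6 members tested were at least 2-fold higher, and 32 context genes in place of 59, since fewer genes are tested. Counting probes gave 4977 higher and 5141 lower over all probes, in place of 2662 and 3002 genes, because more items are counted. The number of members at least 2-fold higher was 9 with normexp and with no background subtraction, where Lmx1a was under 2-fold, and the number lower was 0 in every setting run. Of 96 member probe values under the 8 alternatives, 17 moved by more than the software error, 2 were under 2-fold and 0 changed direction. A lower bound could not change direction, so that last count speaks only for the 6 probes measured on both arrays. Of 143 list medians under an alternative, with dim readings taken as measured, 28 moved. The median turned to -0.33 for the midbrain floor plate and dopamine neuron list, -0.17 for the dorsal list and -0.02 for the pancreas list with both arrays required, where fewer genes are tested, and to 0.14 for the endoderm list with no scaling. With both arrays required, the genes at least 2-fold higher numbered 0 for ventral progenitors and for pancreas, 1 for the dorsal, 2 for the midbrain and 3 for the paralogue list. Signal over background limits Foxa1, Lmx1a, Spon1 and Corin, for which only a bound is known.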

Other observations

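Receptors for the midline cues were read on the same arrays. Of 12 measured genes of netrin receptors and guidance partners, 6 passed 2-fold upward by day 6 and 2 downward. The list also held the peptide genes Nppa and Nppb, and without them 10 were measured, 6 higher and 1 lower. The netrin repulsion receptor gene Unc5a was 15.2-fold higher, from 178 to 3161 units, while Unc5b was 10.5-fold lower, from 16038 to 1791. Robo2, a Slit receptor, was at least 17.1-fold higher by its brightest probe, with 4 probes between 0.78 and 4.09 log2 units. Dcc, the netrin attraction receptor gene, was well above background on neither array.

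Of 14 measured genes of the midbrain floor plate and dopamine neurons, 7 were at least 2-fold higher and 1 lower, with a median of 0.54. With both arrays required, 2 were higher and the median was -0.33. Slc18a2, the vesicular monoamine transporter gene, was at least 21.2-fold higher, Dmrta2 at least 19.5-fold and Neurog2 at least 18.8-fold. The other higher genes were Th (at least 3.77-fold), Otx2 (2.89-fold), Nr4a2 (2.70-fold) and Ferd3l (at least 2.03-fold). The 1 lower gene was En2 (2.57-fold), and Pitx3 had a log2 difference of -0.96 ± 0.30. On neither array were En1 and Slc6a3 well above background. Among paralogues of the 10 genes, 6 of 12 measured were at least 2-fold higher and 5 lower. One of those counted as lower, Nkx2-6, is not settled, since its probes gave -1.16 and 2.79 log2 units and its value was 2.21 with normexp. Nkx2-3 was 8.99-fold higher, Nkx2-1 at least 7.57-fold and Ntng1 at least 6.59-fold.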
